A study of Mus musculus and Bos taurus with 26 samples.

Results

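FK228, also called romidepsin, inhibits class I histone deacetylases and was given to mouse and to bovine embryos in the same series, and the responses of genes with the same name in both species were set side by side. A gene was taken when its symbol was equal in the mouse and the bovine values, with upper and lower case ignored, and when it reached 1 FPKM (fragments scaled to transcript length and to the size of the library) in at least 2 of the 4 libraries of each species. There were 34818 distinct symbols in all, 14744 of them equal in both species, and 9315 of these met the rule. Of the remainder, 1794 passed in mouse and not in cattle, 1173 in cattle and not in mouse, and 2462 in neither. The gene just inside the limit was Tyw5, whose second-highest bovine library stood at 1.0005 FPKM, and the gene just outside was Odf2l at 0.99989 FPKM. Equal symbols are not proof of orthology, above all in multigene families.

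The mouse groups were late 2-cell embryos kept in 50 nM FK228 from the zygote stage and late 2-cell embryos kept in KSOM medium with the solvent DMSO, both taken 36 h after fertilization. The bovine groups were 8/16-cell embryos kept in 50 nM FK228 from the zygote stage and 8/16-cell embryos kept in BO-IVC medium with DMSO, both taken at 72 h. Each group had 2 libraries of polyA RNA. Species, stage, medium, length of exposure, genome build and annotation all differ together between the mouse and the bovine libraries, and their parts in any difference cannot be told apart. A further set of mouse embryos, injected as zygotes with mRNA for mutant or wild-type (WT) Hdac1 or Hdac2, served for comparisons with libraries that received no drug; the labels do not give the mutations, and the embryos keep their own genes for both enzymes.

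Histone deacetylases take acetyl groups off histone tails and are mostly held in corepressor complexes, so that their inhibition raises histone acetylation across the genome. The stages chosen are those at which each species carries out the main wave of zygotic genome activation, when the embryo begins to transcribe its own genes, which comes earlier in mouse than in cattle. Genes for ribosomes, RNA processing and protein turnover are known to be strongly transcribed in that wave, and developmental regulators such as the Hox genes are normally silent until later. The series as a whole concerns the part of HDAC1 and HDAC2 in this activation in both species.

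Across the 9315 genes, 3039 (32.6%) rose and 3552 (38.1%) fell with FK228 in mouse, and 2079 (22.3%) rose and 2819 (30.3%) fell in cattle, by limma with a Benjamini-Hochberg adjusted p under 0.05. The difference between the responses, mouse minus cattle, passed the same test upward in 2604 genes (28%) and downward in 2709 (29.1%). Fold changes are differences of mean log2(FPKM + 1), on which low genes appear to change less than they do, and their median standard error was 0.20 within a species and 0.29 for the difference. A gene changed in both species in 3730 cases, and in 73.9% of these in the same direction. Of all calls, 46.1% were upward in mouse and 42.4% in cattle; with all libraries scaled to an equal sum (LOC112442485, described below, left out) these shares were 58.2% and 52.1%, and the median of all genes moved to 0.29 in mouse and 0.13 in cattle, against -0.04 and 0.00.

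Each gene was placed by its tests. Shared genes, called in both species in the same direction, were 1114 upward (12%) and 1643 downward (17.6%). Opposite genes were called in both species with contrary signs, 547 higher in mouse and lower in cattle (5.87%) and 426 lower in mouse and higher in cattle (4.57%). Mouse-only genes were called in mouse, were not called in cattle and passed the test of the difference, 963 upward (10.3%) and 1212 downward (13%); cattle-only genes were the reverse, 323 upward (3.47%) and 469 downward (5.03%). A further 1062 genes were called in 1 species without a called difference, and 1556 in neither. The shared upward genes were 36.7% of the upward calls in mouse and 53.6% of those in cattle, and the shared downward genes were 46.3% and 58.3% of the downward calls. Across genes, which are not independent replicates, the responses of mouse and cattle correlated with Pearson r = 0.37 and Spearman rho = 0.37 (n = 9315).

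**Figure D1:**
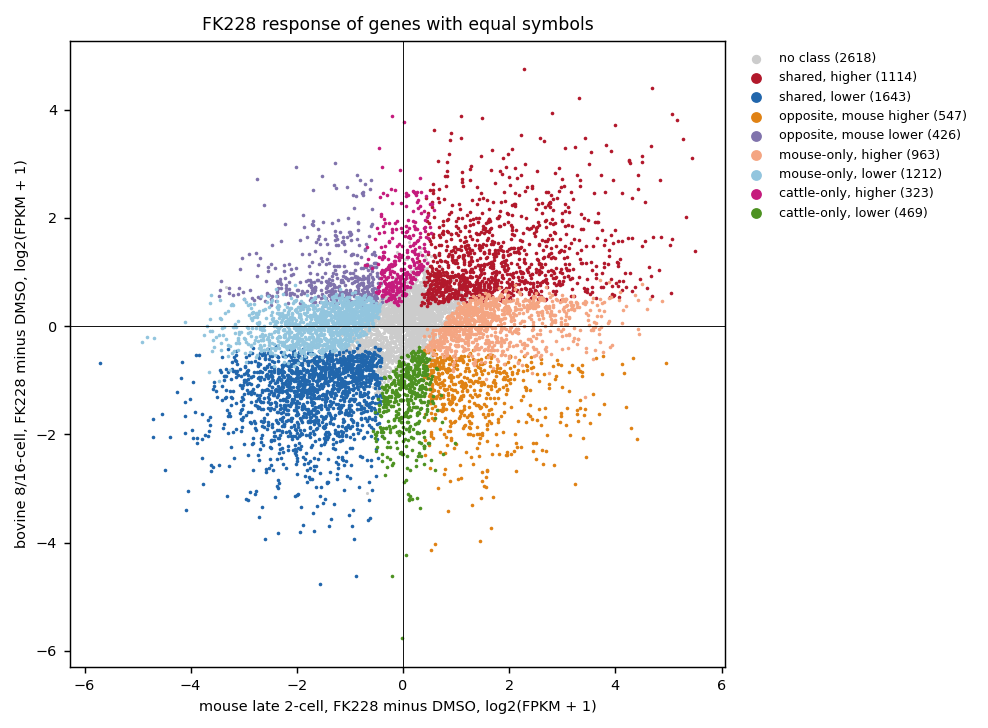
Each point is a gene; the horizontal axis gives FK228 minus DMSO in mouse late 2-cell embryos and the vertical axis the same in bovine 8/16-cell embryos, both on the log2(FPKM + 1) scale. Colours mark the classes, with the number of genes in brackets; shared genes fill the upper right (1114) and lower left (1643), and opposite genes (547 and 426) the remaining corners.

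The 8 libraries were close within groups, with r of 0.976 to 0.987 between replicates, and relative depth estimated from low values ran from 0.859 to 1.11 of the median library of a species. Genes at 1 FPKM or more numbered 14285 and 14331 in mouse FK228 libraries, against 11988 and 12105 in mouse DMSO libraries, and 11952 and 12141 in bovine FK228 libraries, against 11598 and 12018 in bovine DMSO libraries. In bovine FK228 replicate 2, the gene model LOC112442485 reached 23828 FPKM, while each of the other 3 bovine libraries lists it at 0; it is not among the genes compared. The 9 embryo and oocyte markers (such as Pou5f1, Dppa3 and Zp3) were all above 1 FPKM in all 8 libraries. Cumulus and granulosa markers summed to 30.6 to 38.9 FPKM in mouse FK228 and 90.1 to 96.5 FPKM in mouse DMSO libraries, and single markers differed in direction. Amhr2 was lower, at 5.51 and 14.3 FPKM, against 57.7 and 60.5 FPKM, and Gja1 at 1.99 and 1.14, against 19.7 and 20.9 FPKM. Kitl was higher, at 3.84 and 2.67, against 1.17 and 1.1 FPKM. So were Foxl2, at 7.57 and 8.99, against 4.33 and 5.21 FPKM, and Serpine2, at 7.8 and 7.1, against 5.4 and 6.4 FPKM. Lhcgr and Hsd3b1 were at 0. The same markers summed to 97.2 to 109 FPKM in bovine FK228 and 108 to 131 FPKM in bovine DMSO libraries, where single markers also differed in direction. CYP11A1 was at 0.227 and 0.873 FPKM in bovine FK228, against 6.98 and 17.2 FPKM in bovine DMSO libraries, HSD3B1 at 1.58 and 1.59, against 3.25 and 7.6 FPKM, and KITLG at 4.1 and 3.65, against 31 and 26.2 FPKM. STAR was higher, at 34.1 and 44.3 FPKM, against 22.9 and 19.6 FPKM. Blood markers summed to 174 to 192 FPKM in mouse FK228, against 14.8 to 21.3 FPKM in mouse DMSO libraries, and to 131 to 160 FPKM in bovine FK228, against 17.7 to 21.5 FPKM in bovine DMSO libraries. Alpha globin genes made up most of these sums in FK228 libraries, while both mouse beta globin genes were under 1 FPKM in all 4 mouse libraries. Sperm markers were at 52.2 to 54.9 FPKM in mouse FK228 and 53.01 to 53.3 FPKM in mouse DMSO libraries, and at 24.1 to 26.7 FPKM in bovine FK228 and 17.2 to 18.7 FPKM in bovine DMSO libraries. The part of such cells in the results was not tested. In bulk samples, fewer cells of a type and less RNA per cell cannot be told apart.

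Mouse promoters were searched for short motifs on both strands. The letters CCGGAAG, the core recognised by ETS-family factors such as Gabpa, were found on either strand between 250 bases upstream and 50 bases downstream of the start in 31% of the 1355 shared downward genes with a RefSeq promoter (GRCm38.p6) and in 8.95% of the 849 shared upward genes. The share was 27% in mouse-only downward, 10.4% in mouse-only upward, 16.5% in cattle-only upward and 19.4% in cattle-only downward genes, against 19.9% of all 7535 genes that had a promoter entry and 9.12% of 27025 mouse promoters. To show what such a match looks like, 6 promoters are printed as their 250 upstream bases with the ETS letters (CCGGAAG or CTTCCGG) in capitals. They belong to the 3 shared downward genes of the gene lists with the largest change in both species among those chosen for holding the letters, and to the first 3 leading shared upward genes with 1 promoter entry, which do not hold them. The choice does not stand for its class: of named genes with a promoter entry, 2 of 23 shared downward and 2 of 13 shared upward genes hold the letters upstream, and Ipo7, Pprc1, Idh3b and Impdh1 do not.
Gabpa: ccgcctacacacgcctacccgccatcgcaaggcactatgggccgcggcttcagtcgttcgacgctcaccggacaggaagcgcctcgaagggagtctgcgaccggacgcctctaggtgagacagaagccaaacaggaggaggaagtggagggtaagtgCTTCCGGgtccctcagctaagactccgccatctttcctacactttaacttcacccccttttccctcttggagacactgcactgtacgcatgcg
Prps1: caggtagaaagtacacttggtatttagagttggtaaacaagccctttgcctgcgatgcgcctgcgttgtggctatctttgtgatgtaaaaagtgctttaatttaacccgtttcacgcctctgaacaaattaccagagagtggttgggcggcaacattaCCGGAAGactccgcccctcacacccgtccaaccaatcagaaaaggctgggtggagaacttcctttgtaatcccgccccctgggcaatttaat
Polr1c: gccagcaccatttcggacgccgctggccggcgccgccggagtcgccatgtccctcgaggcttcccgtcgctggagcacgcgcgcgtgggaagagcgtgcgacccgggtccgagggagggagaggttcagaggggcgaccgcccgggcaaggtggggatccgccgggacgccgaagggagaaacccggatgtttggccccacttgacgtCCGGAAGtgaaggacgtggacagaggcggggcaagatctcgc
Nrgn: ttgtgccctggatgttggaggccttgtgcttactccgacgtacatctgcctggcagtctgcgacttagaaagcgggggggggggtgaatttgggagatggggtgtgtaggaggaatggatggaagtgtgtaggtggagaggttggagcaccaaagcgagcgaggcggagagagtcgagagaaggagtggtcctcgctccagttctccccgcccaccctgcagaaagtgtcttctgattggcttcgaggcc
Nrtn: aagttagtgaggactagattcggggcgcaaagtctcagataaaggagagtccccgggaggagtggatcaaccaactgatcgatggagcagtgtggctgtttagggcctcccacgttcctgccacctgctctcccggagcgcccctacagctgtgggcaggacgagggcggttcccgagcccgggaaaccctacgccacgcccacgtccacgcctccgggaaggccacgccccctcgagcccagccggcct
Mnx1: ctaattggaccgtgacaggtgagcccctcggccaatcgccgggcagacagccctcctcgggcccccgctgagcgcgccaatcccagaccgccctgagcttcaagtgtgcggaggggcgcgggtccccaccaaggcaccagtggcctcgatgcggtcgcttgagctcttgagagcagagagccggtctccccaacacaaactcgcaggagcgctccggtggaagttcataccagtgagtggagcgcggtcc
These stretches lie, on GRCm38.p6, at chr16:84834874-84835123 (plus strand), chrX:140456353-140456602 (plus), chr17:46248046-46248295 (minus), chr9:37552746-37552995 (minus), chr17:56757549-56757798 (minus) and chr5:29478471-29478720 (minus). The GC box GGGCGG was in 64.8% of shared downward and 76% of shared upward promoters, the E-box CACGTG in 13.5% and 8.83%, CCAAT in 37.9% and 45.9%, TATAAA in 6.27% and 6.71%, and the AP-1 site TGAGTCA in 2.8% and 3.42%. Their shares in all mouse promoters were 35.9%, 7.24%, 37.9%, 14.2% and 5.17%, and the median number of CpG was 23 and 21, against 7 in all promoters. In the 7535 compared genes with a promoter entry the shares were 70.2%, 10.9%, 39.9%, 6.14% and 2.79%, with a median of 22 CpG. Against these genes, the GC box was less frequent in shared downward promoters and the E-box in shared upward promoters. The YY1 core aagatggcg was in 6.86% and 1.3%, against 1.49% of all promoters and 3.77% of the compared genes with a promoter entry. The CRE tgacgtca was in 4.65% and 3.42%, against 1.88% and 3.61%. Where motifs overlap, each was counted. These are matches of letters in the mouse genome; no bovine promoter was read.

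Gabpa, an ETS factor that itself carries the letters, was at 18.2 and 15.7 FPKM in mouse FK228 embryos, against 96.8 and 98.5 FPKM in mouse DMSO embryos. In cattle it was at 26.4 and 20.8 FPKM with FK228, against 115.6 and 93.7 FPKM with DMSO. The FK228 libraries were below the DMSO libraries without overlap in both species, and Gabpa fell by 2.47 ± 0.17 and 2.11 ± 0.17 on the log2 scale (SE; limma, adjusted p = 1.69e-07 and 2.11e-06). Prps1, which makes the activated ribose of nucleotide synthesis, was at 96.3 and 94.5 FPKM with FK228, against 551 and 486 FPKM with DMSO in mouse, and at 37.4 and 30.8 FPKM, against 146 and 152 FPKM in cattle. Polr1c, a subunit of RNA polymerases I and III, fell by 2.00 in mouse and 2.44 in cattle.

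The rule lets in a gene that is silent with DMSO only if FK228 brings it to 1 FPKM, so such genes had to be higher with FK228. Of the 9315 genes, 935 were under 1 FPKM in both mouse DMSO libraries and 300 in both bovine DMSO libraries. Among the shared upward genes these were 345 (31%) and 193 (17.3%). Under 1 FPKM in both mouse DMSO libraries were also 337 mouse-only upward genes (35%) and 161 opposite genes higher in mouse (29.4%). In both bovine DMSO libraries the same held for 28 cattle-only upward genes (8.67%) and 27 opposite genes lower in mouse (6.34%). The reverse limit, under 1 FPKM in both FK228 libraries, held for 181 genes in mouse and 287 in cattle. Genes so admitted had to differ in that species, so their values are a description and no p is given in support of them there. Among the genes described, Nrgn, Arc, Mnx1, Foxj1, Scarf2, Fam110a, Ndn, Crym, Otud6a, Bmp4, Otx1, Cdx2, Gata3, Cacna1g, Kif1a, Hdac3, Nkx1-1 and Qars were under 1 FPKM in both mouse DMSO libraries, and Arc, Foxj1, Gal3st2 and Rab42 in both bovine DMSO libraries. Gnl3l, Bik, Tet1, Urgcp and Bap1 were under 1 FPKM in both bovine FK228 libraries and Tbrg1 and Spc24 in both mouse FK228 libraries. Genes named below without values, as part of a whole class, are left out of this naming.

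Leading shared upward genes included neuronal genes and developmental regulators that were low with DMSO. Nrgn, a calmodulin-binding protein of neurons (a protein-coding gene on the minus strand of GRCm38 chromosome 9, 37544492 to 37552904), was at 21.1 and 32.4 FPKM in mouse FK228 embryos, against 0.0519 and 0.0518 FPKM with DMSO. In cattle Nrgn was at 174 and 132 FPKM with FK228, against 5.09 and 7.59 FPKM with DMSO. The groups did not overlap in either species; the fold change was 4.69 in mouse, and in cattle it rose by 4.39 ± 0.24 (adjusted p = 2.33e-07, limma). Arc, an immediate-early gene of synapses, was at 36.9 and 38.3 FPKM with FK228, against 0.0224 and 0.312 FPKM with DMSO in mouse, and at 18.9 and 19.5 FPKM, against 0.296 and 0.386 FPKM in cattle. Nrtn, which encodes the trophic factor neurturin, was at 93.1 and 111 FPKM, against 1.36 and 2.49 FPKM in mouse, and at 26.1 and 33.6 FPKM, against 1.14 and 1.26 FPKM in cattle. Arc had fold changes of 5.06 and 3.91, and Nrtn rose in both species and more in mouse, with a difference of 1.36 (adjusted p = 0.00301, limma). Mnx1, a homeobox factor of motor neurons and pancreas, had fold changes of 3.99 in mouse and 3.71 in cattle. They were 5.28 and 3.45 for Foxj1, a regulator of motile cilia, 3.43 and 3.47 for Scarf2, 3.82 and 3.35 for Foxo6, and 4.67 and 3.33 for Fam110a.

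Leading shared downward genes included nuclear import factors, metabolic enzymes and the Dppa2 and Dppa4 pair. Ipo7, a nuclear import receptor that carries ribosomal proteins and histones (a protein-coding gene on the plus strand of GRCm38 chromosome 7, 110018274 to 110056609), was at 2.92 and 2.86 FPKM in mouse FK228 embryos, against 61.2 and 68.6 FPKM with DMSO. In cattle it was at 2.04 and 1.51 FPKM with FK228, against 30.3 and 26.1 FPKM with DMSO. It fell by 4.08 ± 0.18 in mouse and 3.40 ± 0.18 in cattle (adjusted p = 1.77e-08 and 2.01e-07, limma). Dppa4 was at 13.3 and 14.1 FPKM, against 141 and 148 FPKM in mouse, and at 1.14 and 0.709 FPKM, against 17.4 and 14.3 FPKM in cattle. Its partner Dppa2, which with Dppa4 binds chromatin and promotes 2-cell gene expression in mouse, was at 8.00 and 6.08 FPKM, against 102 and 113 FPKM in mouse, and at 6.90 and 4.70 FPKM, against 51.2 and 48.5 FPKM in cattle. Dppa4 fell by 3.31 and 3.13 and Dppa2 by 3.76 and 2.92, and neither pair of groups overlapped. Pprc1, a coactivator of mitochondrial gene expression, fell by 4.05 and 3.05, Rnf11 by 2.96 and 3.19, and the import adaptor Kpna6 by 2.93 and 3.22. Idh3b of the citric acid cycle fell by 2.88 and 3.06, and Impdh1, which makes guanine nucleotides, by 2.78 and 3.10.

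**Figure D2:**
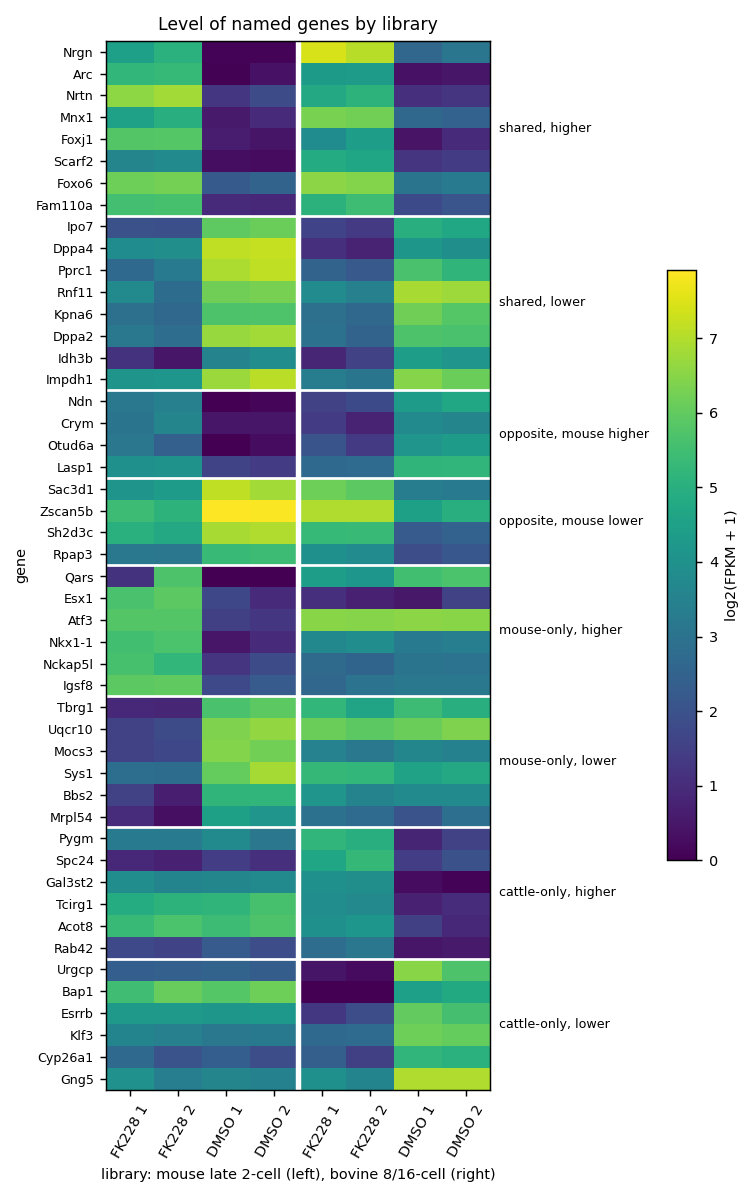
Rows are the leading genes of each class and columns the 8 libraries, FK228 left of DMSO within mouse (left block) and cattle (right block); colour gives log2(FPKM + 1). The shared rows change alike in both blocks, as in Nrgn (4.69 and 4.39) and Ipo7 (-4.08 and -3.40), while opposite rows such as Ndn (3.25 in mouse, -2.92 in cattle) change places.

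Ribosomal protein, ribosome biogenesis, translation initiation and splicing genes were mostly lower with FK228 in both species. Of 76 cytosolic ribosomal protein genes, 75 fell and 0 rose in mouse and 65 fell and 3 rose in cattle, with median fold changes of -2.15 and -0.97; 65 were shared downward, and the test of the difference was negative in 54 and positive in 4. Of 78 ribosome biogenesis genes, 77 fell in mouse and 61 fell and 3 rose in cattle (medians -2.45 and -0.92). Rpl23 of the large subunit was at 30.3 and 32.8 FPKM with FK228, against 170 and 165 FPKM with DMSO in mouse, and at 49.5 and 36.0 FPKM, against 363 and 310 FPKM in cattle. Rpl27 was at 24.6 and 18.98 FPKM, against 194 and 204 FPKM in mouse, but at 309 and 292 FPKM, against 349 and 263 FPKM in cattle, where the groups overlapped. Rpl27, with a difference of -3.13 ± 0.24, and Rps28, with -2.48 ± 0.21, were thus mouse-only (adjusted p = 1.83e-06 and 2.98e-06, limma). The 3 ribosomal protein genes with opposite calls were Rpl28, Rpsa and Rps2, lower in mouse by 2.85, 2.81 and 1.27 and higher in cattle by 0.53, 0.49 and 0.40; these genes were named after their values were seen. Ribosomal protein genes have many processed copies, and reads may be split between them.

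Among ribosome assembly factors, the GTP-binding protein Gnl3l was at 1.48 and 1.33 FPKM with FK228, against 14.3 and 13.0 FPKM with DMSO in mouse, and at 0.563 and 0.614 FPKM, against 22.6 and 23.9 FPKM in cattle. Its fold changes were -2.61 in mouse and -3.93 in cattle. Ppan, Dimt1 and the polymerase I subunit Polr1b were mouse-only, with fold changes of -2.87, -3.09 and -2.63 in mouse and -0.18, -0.15 and -0.08 in cattle.

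Of 21 aminoacyl-tRNA synthetase genes, 11 fell and 2 rose in mouse and 11 fell and 1 rose in cattle, with medians of -0.64 and -0.57, and the difference was called upward in 7 and downward in 7. Translation initiation factors fell in 31 of 35 in mouse and in 24 of 35 in cattle (medians -1.89 and -1.12). Eif4g1, the scaffold of the cap-binding complex, was at 50.3 and 55.2 FPKM with FK228, against 258 and 290 FPKM with DMSO in mouse, and at 23.4 and 22.9 FPKM, against 367 and 316 FPKM in cattle. It fell in both species and further in cattle, by 2.35 and 3.82. Eif4h, a helper of the helicase eIF4A, was at 4.66 and 6.34 FPKM, against 69.0 and 65.4 FPKM in mouse, and at 101 and 106 FPKM, against 100 and 113 FPKM in cattle. Eif4h and Eif2b4 were mouse-only, whereas Eif2b5, another subunit of the same exchange factor as Eif2b4, fell by 2.83 in mouse and 2.65 in cattle.

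Of 65 splicing genes, 59 fell and 1 rose in mouse and 45 fell and 1 rose in cattle (medians -1.43 and -1.05), 42 of them shared downward. Hnrnpa2b1, a splicing regulator, was at 17.6 and 17.8 FPKM with FK228, against 119 and 116 FPKM with DMSO in mouse, and at 95.5 and 52.6 FPKM, against 885 and 602 FPKM in cattle. Cdc5l of the activated spliceosome was mouse-only, at -2.37 in mouse and 0.24 in cattle. Of 40 proteasome genes, 33 fell in mouse and 27 fell and 2 rose in cattle (medians -1.5 and -0.71). The ATPase subunit Psmc5 was at 3.63 and 3.64 FPKM, against 55.0 and 45.6 FPKM in mouse, and at 8.56 and 7.21 FPKM, against 56.8 and 46.2 FPKM in cattle. Subunits of the same particle differed: Psmd11 was mouse-only (-3.22 in mouse, 0.40 in cattle), and the core subunits Psma1 (0.24, -2.48) and Psmb3 (0.08, -2.41) were cattle-only. In the 14 genes of the CCT chaperonin and prefoldin, which fold actin and tubulin, 12 fell in mouse and 10 fell and 2 rose in cattle.

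Of 26 RNA polymerase subunit genes, 23 fell in mouse and 13 fell and 1 rose in cattle (medians -1.58 and -0.48). Polr2e, shared by the nuclear polymerases, was at 33.1 and 32.2 FPKM with FK228, against 165 and 175 FPKM with DMSO in mouse, and at 133 and 92.6 FPKM, against 115 and 111 FPKM in cattle. Of 70 mitochondrial ribosomal protein genes, 40 fell and 3 rose in mouse and 35 fell and 2 rose in cattle (medians -0.74 and -0.55). Mrpl12 fell by 2.77 and 3.04, and Mrpl20 was mouse-only (-3.06 in mouse, -0.10 in cattle). The 55 nuclear-encoded respiratory chain genes had medians of -0.86 and -0.65, and Uqcr10 of complex III, which was mouse-only, was at 1.90 and 2.54 FPKM with FK228, against 82.3 and 98.6 FPKM with DMSO in mouse, with 70.0 and 60.1 FPKM, against 68.6 and 82.4 FPKM in cattle.

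**Figure D3:**
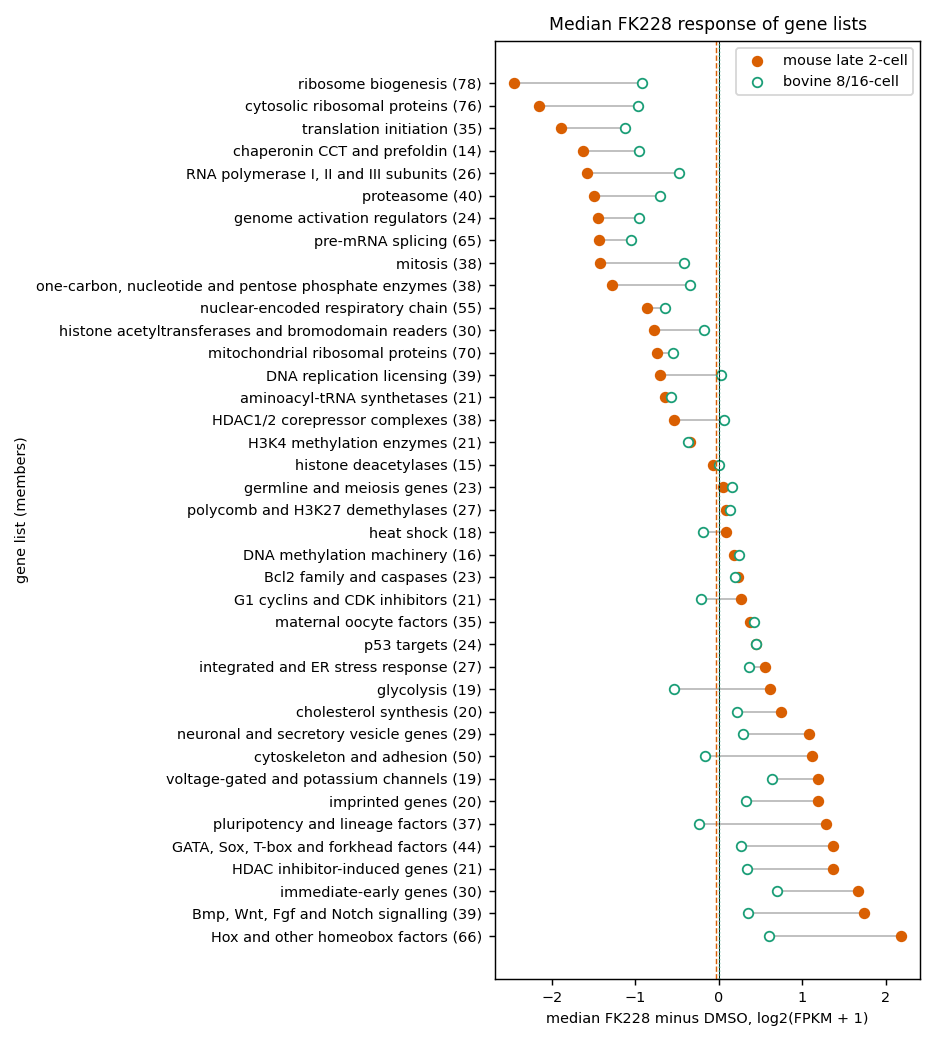
Each row is a gene list with at least 14 genes compared (number in brackets); filled points give the median FK228 minus DMSO in mouse and open points the median in cattle, on the log2(FPKM + 1) scale, and the dashed and dotted lines the medians of all genes (-0.04 and 0.00). Ribosome biogenesis stands at -2.45 and -0.92 and the homeobox list at 2.18 and 0.60, while the pluripotency list has medians of 1.28 and -0.24.

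Many cell cycle genes were lower with FK228 in mouse. Of 38 mitosis genes, 30 fell and 4 rose in mouse and 19 fell and 4 rose in cattle (medians -1.42 and -0.42), with 16 shared downward and 13 mouse-only downward. Kif11, the kinesin that separates the spindle poles, was at 3.22 and 2.88 FPKM with FK228, against 25.4 and 23.5 FPKM with DMSO in mouse, and at 17.2 and 12.8 FPKM, against 17.4 and 14.2 FPKM in cattle. Its bovine groups overlapped, and Cdca8 and Incenp of the chromosomal passenger complex likewise fell in mouse (-2.54 and -2.02) with -0.21 and 0.29 in cattle. Spc24, of the kinetochore, was cattle-only upward, at 0.836 and 0.648 FPKM, against 1.70 and 1.08 FPKM in mouse, and at 24.9 and 37.9 FPKM, against 1.71 and 2.88 FPKM in cattle. DNA replication licensing genes fell in 23 and rose in 4 of 39 in mouse, and fell in 11 and rose in 2 in cattle (medians -0.70 and 0.02, the second -0.06 with median-ratio scaling). The bovine downward count was near the share of all genes that fell in cattle (30.3%). Mcm6 of the replicative helicase fell by 1.95 in mouse, with -0.07 in cattle. Dbf4, the activator of the kinase Cdc7, was at 227 and 204 FPKM, against 230 and 212 FPKM in mouse, but at 5.48 and 3.09 FPKM, against 30.7 and 20.2 FPKM in cattle. The CDK inhibitor Cdkn1c rose by 1.62 in mouse and 1.73 in cattle.

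Genome activation regulators also moved with FK228: of 24, 17 fell and 2 rose in mouse and 15 fell and 1 rose in cattle (medians -1.45 and -0.96), 10 of them shared downward. Smarca4, the ATPase of the SWI/SNF remodelling complex, was at 9.34 and 9.04 FPKM with FK228, against 59.8 and 62.6 FPKM with DMSO in mouse, and at 36.0 and 32.4 FPKM, against 38.3 and 38.8 FPKM in cattle. Smarca4 and Nfya, a subunit of the CCAAT-binding factor, were mouse-only, with -2.61 and -2.04 in mouse and -0.17 and 0.14 in cattle. Otx2, Myc, Klf4 and Klf5 were the cattle-only downward genes of the list, lower in cattle by 0.99, 1.89, 1.08 and 1.5; they were named after their values were seen.

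Homeobox genes, which pattern the body axis and organs, had the highest median of the lists in mouse. Of 90 listed, 66 were compared, and 63 rose and 0 fell in mouse while 34 rose and 8 fell in cattle (medians 2.18 and 0.60); 27 of the 66 were under 1 FPKM in both mouse DMSO libraries and 7 in both bovine DMSO libraries. By class, 32 were shared upward, 23 mouse-only upward and 7 opposite. Hoxa9, a posterior patterning gene, was at 44.6 and 48.9 FPKM with FK228, against 2.50 and 1.33 FPKM with DMSO in mouse, and at 5.25 and 6.35 FPKM, against 3.05 and 4.83 FPKM in cattle. Msx1 was at 112 and 118 FPKM, against 11.02 and 8.52 FPKM in mouse, and at 236 and 175 FPKM, against 134 and 224 FPKM in cattle, where the groups overlapped. Hoxa9, Msx1 and Six2 were mouse-only. The 7 opposite genes, all higher in mouse and lower in cattle, included Otx1, Hoxb4, Pitx1, Gsc, Tgif1 and Barx1, named after their values were seen; Otx1, a head patterning gene, averaged 3.71 FPKM with FK228 and 0.745 FPKM with DMSO in mouse, and 24.7 FPKM with FK228 and 95.2 FPKM with DMSO in cattle.

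Bmp, Wnt, Fgf and Notch signalling genes rose in 33 and fell in 1 of 39 in mouse, and rose in 17 and fell in 7 in cattle (medians 1.74 and 0.35). Of the 39, 12 were under 1 FPKM in both mouse DMSO libraries, 5 in both bovine DMSO libraries and 5 in both bovine FK228 libraries. Hes6 of this list was at 68.9 and 72.8 FPKM with FK228, against 5.93 and 3.90 FPKM with DMSO in mouse. In cattle it was at 1.59 and 1.82 FPKM, against 0.940 and 2.83 FPKM. The ligand Bmp4 was opposite, rising by 4.96 in mouse and falling by 0.69 in cattle; its groups averaged 35.2 FPKM with FK228 and 0.175 FPKM with DMSO in mouse, and 64.8 FPKM with FK228 and 104 FPKM with DMSO in cattle. The other 6 opposite genes were Wnt5a, Bmp1, Chrd, Wnt11, Sfrp2 and Fgfr4, all higher in mouse and lower in cattle. With Bmp4, they were named as the whole of that class in the list, and they were all 7 genes that fell in cattle. The 5 genes under 1 FPKM in both bovine FK228 libraries had to be lower with FK228 in cattle. The 12 under 1 FPKM in both mouse DMSO libraries had to be higher in mouse. For any such gene among the 7, that change is only a description.

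Pluripotency and lineage genes differed between the species. Of 37 genes, 26 rose and 3 fell in mouse while 9 rose and 15 fell in cattle, with medians of 1.28 and -0.24, and 28 passed the test of the difference upward and 3 downward. Of the 37, 6 were under 1 FPKM in both mouse DMSO libraries and 2 in both bovine FK228 libraries. Genes of the trophectoderm differed among themselves: Cdx2 (2.01 in mouse, 0.78 in cattle), Eomes (2.61, 1.59) and Gata2 (4.82, 1.03) were among 9 shared upward genes, Krt18 (2.78, -0.51) and Gata3 (3.17, 0.31) were mouse-only, Krt8 (3.29, -0.78) and Hand1 (2.67, -1.68) opposite, and Tfap2c (0.09, -1.55) and Klf5 (0.27, -1.5) cattle-only downward. Esrrb, an orphan nuclear receptor of naive pluripotency, was cattle-only, at 17.9 and 18.2 FPKM, against 17.2 and 17.5 FPKM in mouse, and at 1.43 and 2.63 FPKM with FK228, against 63.3 and 47.2 FPKM with DMSO in cattle. It fell by 4.23 ± 0.22 in cattle with a fold change of 0.06 ± 0.22 in mouse, and the difference was 4.29 ± 0.31 (adjusted p = 1.31e-06, limma). Klf5, Lin28b, Tfap2c and Klf4 were the other cattle-only downward genes. Id2, Krt18 and Gata3 were mouse-only upward; Gata3, a trophectoderm factor, was at 8.87 and 14.3 FPKM with FK228, against 0.276 and 0.465 FPKM with DMSO in mouse, and at 5.23 and 5.64 FPKM, against 3.89 and 4.53 FPKM in cattle.

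The 9 opposite genes of that list were all higher in mouse and lower in cattle, and several belong to primitive endoderm or to epithelia. Gata6, the factor that specifies primitive endoderm, averaged 5.58 FPKM with FK228 and 1.24 FPKM with DMSO in mouse, and 5.38 FPKM with FK228 and 47.9 FPKM with DMSO in cattle. It rose by 1.53 in mouse and fell by 2.96 in cattle. Pdgfra, the receptor that marks the same lineage, rose by 1.61 in mouse and fell by 1.55 in cattle, and the endocytic genes Lrp2 and Dab2 rose by 1.82 and 0.76 in mouse and fell by 0.77 and 1.09 in cattle. Hand1, Krt8, Cdh1, Cdh2 and Utf1 completed the class. The 9 were named after their values were seen, as the whole of a class. Pou5f1, the central pluripotency factor, averaged 123 FPKM with FK228 and 110 FPKM with DMSO in mouse, and 57.9 FPKM with FK228 and 65.5 FPKM with DMSO in cattle, and was not called in either species.

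Of 50 cytoskeleton and adhesion genes, 10 were under 1 FPKM in both mouse DMSO libraries and 1 in both bovine DMSO libraries. Among the 50, 30 rose and 6 fell in mouse, and 14 rose and 18 fell in cattle (medians 1.11 and -0.17). The bovine counts were near the shares of all 9315 genes, of which 22.3% rose and 30.3% fell in cattle. In mouse, 32.6% of all genes rose and 38.1% fell. The list held 12 opposite genes higher in mouse and lower in cattle. These 12 were S100a10, S100a11, Anxa2, Tpm2, Tpm4, Gsn, Tuba1a, Tuba1b, Lmnb2, Tagln2, Msn and Col1a1, named as the whole of that class. Anxa2, which with S100a10 forms a membrane-binding complex, averaged 31.0 FPKM with FK228 and 2.78 FPKM with DMSO in mouse, and 4.07 FPKM with FK228 and 16.8 FPKM with DMSO in cattle. Tuba1a, an alpha tubulin, averaged 48.6 FPKM with FK228 and 16.8 FPKM with DMSO in mouse, and 21.96 FPKM with FK228 and 166 FPKM with DMSO in cattle; Tuba1a and Tuba1b are near-identical and may share reads. Vim, the intermediate filament of mesenchyme, was mouse-only, at 7.06 and 8.78 FPKM, against 0.376 and 1.66 FPKM in mouse, and at 5.67 and 11.8 FPKM, against 7.15 and 18.9 FPKM in cattle. Granulosa markers differed in direction in cattle. CYP11A1 (0.227 and 0.873, against 6.98 and 17.2 FPKM) and HSD3B1 were lower with FK228 and, like Vim, highest in bovine DMSO replicate 2. KITLG was also lower, but highest in bovine DMSO replicate 1. STAR (34.1 and 44.3, against 22.9 and 19.6 FPKM), HAS2 (13.0 and 12.7, against 8.99 and 10.3 FPKM) and SERPINE2 were higher with FK228. The part of such cells in the bovine values of the list was not tested.

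Sugar and sterol metabolism was also compared. Of 19 glycolysis genes, 11 rose and 3 fell in mouse, and 4 rose and 9 fell in cattle (medians 0.61 and -0.54). The glucose transporter Slc2a1 and hexokinase Hk1 were mouse-only, with 2.80 and 2.53 in mouse and 0.25 and -0.16 in cattle. Hk2, Pfkp, Pfkfb4 and Pgk1 were opposite, and Pgk1 averaged 35.0 FPKM with FK228 and 22.5 FPKM with DMSO in mouse, and 1.47 FPKM with FK228 and 39.7 FPKM with DMSO in cattle; these 4 were named as the whole of that class. Aldoc rose in both species, by 2.01 and 2.60. Of 20 cholesterol synthesis genes, 12 rose and 3 fell in mouse and 6 rose and 2 fell in cattle (medians 0.74 and 0.22). Msmo1, a sterol oxidase, was at 69.7 and 61.0 FPKM with FK228, against 3.28 and 4.88 FPKM with DMSO in mouse, and at 26.7 and 24.6 FPKM, against 26.7 and 25.1 FPKM in cattle.

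**Figure D4:**
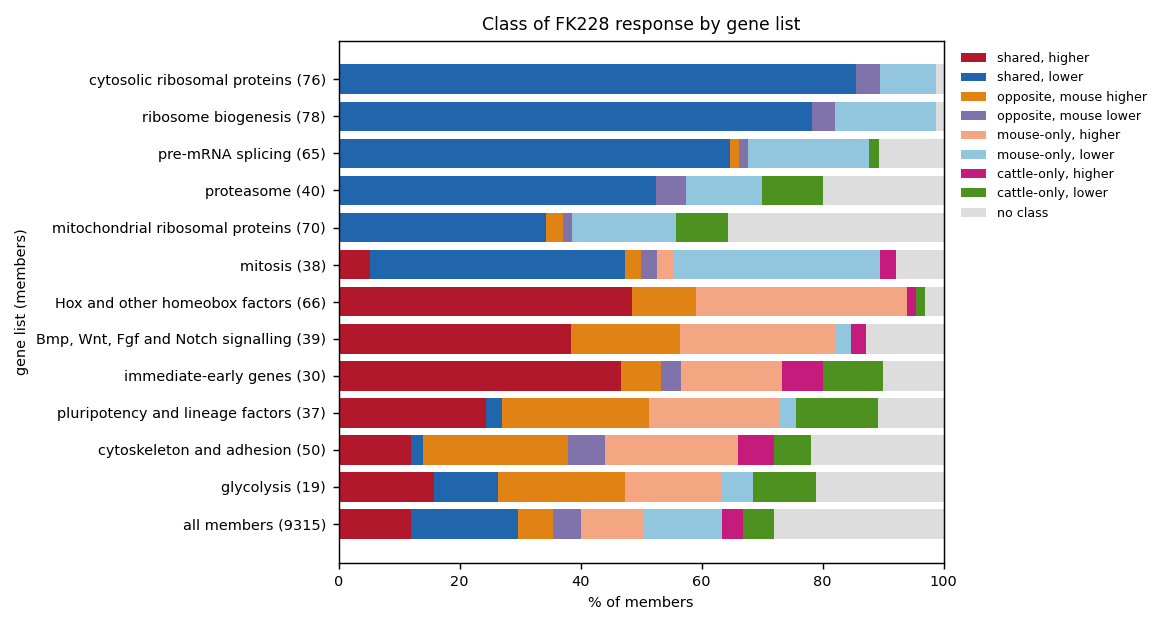
Bars give, for each gene list (number of genes in brackets), the percentage of genes in each class; the bottom bar is all 9315 genes. Ribosomal lists are mostly shared downward (65 of 76 cytosolic ribosomal proteins), homeobox genes mostly shared or mouse-only upward (32 and 23 of 66), and pluripotency, cytoskeleton and glycolysis lists hold more opposite genes (9 of 37, 12 of 50 and 4 of 19 higher in mouse).

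Stress, neuronal and channel genes rose in part in both species. Of 30 immediate-early genes, 22 rose and 1 fell in mouse and 17 rose and 5 fell in cattle (medians 1.67 and 0.69), with 14 shared upward. Of the 30, 6 were under 1 FPKM in both mouse DMSO libraries and 2 in both bovine DMSO libraries. Fosb was at 29.3 and 31.8 FPKM with FK228, against 6.59 and 6.21 FPKM with DMSO in mouse, and at 56.7 and 39.6 FPKM, against 10.2 and 8.27 FPKM in cattle. Atf3, a stress-induced transcription factor, was at 54.8 and 54.7 FPKM, against 1.80 and 1.40 FPKM in mouse, but at 90.1 and 87.1 FPKM, against 92.5 and 90.8 FPKM in cattle, where the groups did not overlap but lay close. Its mouse change was 4.42 ± 0.15, with -0.05 ± 0.15 in cattle, with a difference of 4.47 ± 0.21 (adjusted p = 2.75e-07, limma). Of 29 neuronal and secretory vesicle genes, 20 rose and 4 fell in mouse and 12 rose and 6 fell in cattle, among them the axonal kinesin Kif1a (2.53 and 2.25) and the granule protein Chga (2.21 and 2.04). Of the 29, 6 were under 1 FPKM in both mouse DMSO libraries and 3 in both bovine DMSO libraries. Of 19 channel genes, 15 rose and 2 fell in mouse and 9 rose and 0 fell in cattle. In mouse, 5 of the 19 were under 1 FPKM in both DMSO libraries. The T-type calcium channels Cacna1g (4.32 and 2.36) and Cacna1h (2.21 and 3.53) rose in both species, the second more in cattle (difference -1.32 ± 0.30, adjusted p = 0.00281, limma).

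Of genes tied to cell death, Bbc3, which encodes the BH3-only killer PUMA, was at 54.4 and 65.2 FPKM with FK228, against 8.27 and 3.47 FPKM with DMSO in mouse, and at 18.0 and 18.7 FPKM, against 0.728 and 1.2 FPKM in cattle. It rose by 3.23 and 3.31, while Bax fell by 2.68 in mouse with 0.55 in cattle. Bik was opposite, at 21.2 and 25.5 FPKM, against 3.66 and 2.05 FPKM in mouse, and at 0.417 and 0.761 FPKM, against 9.17 and 4.99 FPKM in cattle. Over 24 p53 targets the medians were 0.44 and 0.44, and over 23 Bcl2 family and caspase genes 0.23 and 0.19. Of 35 maternal oocyte factors, 12 rose and 4 fell in mouse and 9 rose and 1 fell in cattle (medians 0.37 and 0.42). The upward counts were near the shares of all 9315 genes, of which 32.6% rose in mouse and 22.3% in cattle.

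Chromatin genes included the targets of the drug. Hdac1 was at 51.2 and 47.7 FPKM with FK228, against 90.6 and 92.1 FPKM with DMSO in mouse, and at 40.6 and 38.4 FPKM, against 55.7 and 50.3 FPKM in cattle. It fell by 0.87 in mouse and 0.41 in cattle (adjusted p = 0.000136 and 0.0267, limma), but both calls were lost with quantile normalization (-0.24, adjusted p = 0.147, and -0.21, adjusted p = 0.226). The bovine call was also lost with equal sums (adjusted p = 0.115), with cattle fitted alone (0.0628), and without bovine DMSO replicate 1 (0.126) or FK228 replicate 2 (0.0865). Hdac2 was at 33.2 and 35.9 FPKM, against 20.9 and 21.2 FPKM in mouse, and at 16.9 and 14.9 FPKM, against 32.1 and 32.2 FPKM in cattle. Hdac2 thus rose by 0.69 in mouse and fell by 0.98 in cattle, a difference of 1.66 ± 0.22 (adjusted p = 5.71e-05, limma). Hdac3, of the NCoR and SMRT complexes, rose by 2.72 in mouse and 1.29 in cattle; the bovine call was lost without DMSO replicate 1 (0.68, adjusted p = 0.0845) or FK228 replicate 2 (1.23, adjusted p = 0.0556). Hdac8 was cattle-only downward, at -0.07 in mouse and -1.15 in cattle, and this class was lost without any of 4 libraries (bovine DMSO replicate 1, bovine FK228 replicate 2, mouse DMSO replicate 1 or mouse FK228 replicate 1; difference 0.79 to 0.99, adjusted p = 0.0548 to 0.0753) and with quantile normalization (0.68, adjusted p = 0.118).

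Of 30 histone acetyltransferase and bromodomain genes, 21 fell and 1 rose in mouse and 8 fell and 1 rose in cattle (medians -0.78 and -0.18). In the 38 corepressor genes, 20 fell and 5 rose in mouse and 10 fell and 8 rose in cattle. The bovine downward counts of both lists were near the share of all genes that fell in cattle (30.3%). Mta2 of the NuRD complex was at 22.9 and 18.7 FPKM with FK228, against 273 and 264 FPKM with DMSO in mouse, and at 16.0 and 12.2 FPKM, against 53.2 and 50.8 FPKM in cattle. Kdm5b, a demethylase of histone H3 lysine 4, was at 27.7 and 30.4 FPKM, against 105 and 138 FPKM in mouse, and at 60.2 and 45.4 FPKM, against 64.6 and 70.4 FPKM in cattle. Kdm5b was mouse-only (difference -1.65 ± 0.26, adjusted p = 0.0002, limma), whereas its relative Kdm5a fell by 2.18 in mouse and 1.39 in cattle. Among Polycomb genes that read or bind H3K27 methylation, Cbx2 was cattle-only upward (0.31 in mouse, 2.74 in cattle) and Cbx8 shared upward (2.77, 2.19). Tet1, which oxidises methylcytosine, fell by 1.77 and 2.00.

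Ndn, an imprinted gene of neurons, was at 8.04 and 9.85 FPKM with FK228, against 0 and 0.089 FPKM with DMSO in mouse, and at 1.86 and 2.39 FPKM, against 19.8 and 25.7 FPKM in cattle. Its fold changes were 3.25 in mouse and -2.92 in cattle, with no overlap of groups in either species. Crym, a thyroid hormone-binding protein, was at 7.25 and 11.02 FPKM, against 0.385 and 0.385 FPKM in mouse, and at 1.64 and 0.744 FPKM, against 12.4 and 11.1 FPKM in cattle. Lasp1, an actin-binding protein, was at 14.8 and 15.9 FPKM, against 2.09 and 1.68 FPKM in mouse, and at 5.59 and 5.79 FPKM, against 35.2 and 35.9 FPKM in cattle. No groups overlapped in Crym or Lasp1, and Otud6a followed the same pattern (2.64 and -2.55). In the reverse direction, Sac3d1 was at 15.9 and 19.5 FPKM with FK228, against 140 and 112 FPKM with DMSO in mouse, and at 71.5 and 59.0 FPKM, against 9.31 and 8.73 FPKM in cattle. Zscan5b (-2.62 and 2.24), the adaptor Sh2d3c (-2.02 and 2.94) and Rpap3, a factor in RNA polymerase assembly (-2.22 and 1.89), were also lower in mouse and higher in cattle. Zscan5b belongs to a multigene family.

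Among mouse-only genes, Esx1, an X-linked homeobox gene of the placenta, was at 49.0 and 59.4 FPKM with FK228, against 2.28 and 0.924 FPKM with DMSO in mouse, and under 2 FPKM in all 4 bovine libraries. Nkx1-1, Nckap5l and Igsf8 rose by 4.87, 3.90 and 3.93 in mouse. Qars, glutaminyl-tRNA synthetase, was at 0 to many decimals in both mouse DMSO libraries and stood at 1.23 and 51.5 FPKM in mouse FK228 libraries, and its mouse call was lost with mouse fitted alone (adjusted p = 0.0679 and 0.127 over 4 and 22 libraries); in cattle it was at 20.1 and 16.9 FPKM, against 44.5 and 49.8 FPKM. Tbrg1, a growth regulator, was at 0.857 and 0.788 FPKM, against 48.8 and 59.996 FPKM in mouse, and at 36.6 and 23.4 FPKM, against 42.3 and 31.0 FPKM in cattle. Mocs3, Sys1, Bbs2 and Mrpl54 fell in mouse by 4.69, 3.63, 4.11 and 3.64.

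Among cattle-only genes, Pygm, muscle glycogen phosphorylase, was at 8.56 and 8.44 FPKM, against 12.8 and 7.78 FPKM in mouse, and at 35.7 and 30.1 FPKM with FK228, against 0.754 and 1.97 FPKM with DMSO in cattle. Gal3st2, Tcirg1, Acot8 and Rab42 rose by 3.76, 2.94, 2.88 and 2.46 in cattle. Urgcp was at 4.20 and 4.37 FPKM, against 4.70 and 4.01 FPKM in mouse, and at 0.367 and 0.166 FPKM, against 89.5 and 51.1 FPKM in cattle. The deubiquitinase gene Bap1, which counters Polycomb, was listed at 0 in both bovine FK228 libraries, against 20.9 and 26.9 FPKM in bovine DMSO libraries, and stood at 44.3 and 65.9 FPKM, against 55.3 and 70.8 FPKM in mouse. Klf3, the retinoic acid hydroxylase Cyp26a1 and the G protein subunit Gng5 fell in cattle by 3.36, 3.19 and 3.20, with 0.33, 0.26 and 0.16 in mouse.

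The classes were then read in mouse libraries that had not been used to form them, with limma over 22 mouse libraries. Between the early (24 h) and late (36 h) 2-cell stage of embryos with WT Hdac1 mRNA, 35.6% of the 9315 genes rose and 32.5% fell. Of the shared downward genes, 71.1% rose in this interval and 10.4% fell, and the shares in the mouse-only downward genes were 67% and 10.7%. The shares were 19% and 56.9% in the cattle-only downward genes, close to the 16.3% and 54.2% of genes called in neither species. They were 15.9% and 32.4% in the shared upward genes. Dppa4, for example, was higher at the late stage by 5.27 and Ipo7 by 4.56. The leading cattle-only downward genes went both ways. Gng5 was lower by 2.55 and Bap1 by 0.46, while Esrrb, Klf3 and Urgcp were higher by 2.12, 1.85 and 1.69. Cyp26a1, at -0.68, did not pass the test.

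Late 2-cell embryos with mutant Hdac1 mRNA were set against those with WT Hdac1 mRNA, where 31.1% of all genes rose and 29.8% fell. Of the shared upward genes 82.5% rose and 0 fell, and of the shared downward genes 78.7% fell and 0.913% rose. A gene near 0 in untreated embryos has little room to be called lower. Of shared upward genes 31%, and of mouse-only upward genes 35%, were under 1 FPKM in both mouse DMSO libraries. Mouse-only upward genes rose in 81.2% and mouse-only downward genes fell in 75.3%. In cattle-only genes, 23.8% of the upward genes rose and 5.57% fell, and 24.5% of the downward genes rose and 6.82% fell. For mutant against WT Hdac2, where 30.3% of all genes rose and 31% fell, 83.1% of shared upward genes rose, 80.8% of shared downward genes fell, 85.8% of mouse-only upward genes rose and 79.5% of mouse-only downward genes fell. Cattle-only upward genes rose in 16.1% and fell in 10.2%, and cattle-only downward genes rose in 21.1% and fell in 6.61%. The opposite genes followed the mouse direction, with 76.4% of those higher in mouse rising with mutant Hdac1 and 78.4% with mutant Hdac2. The stage comparison and that of mutant Hdac1 share the late WT Hdac1 libraries.

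**Figure D5:**
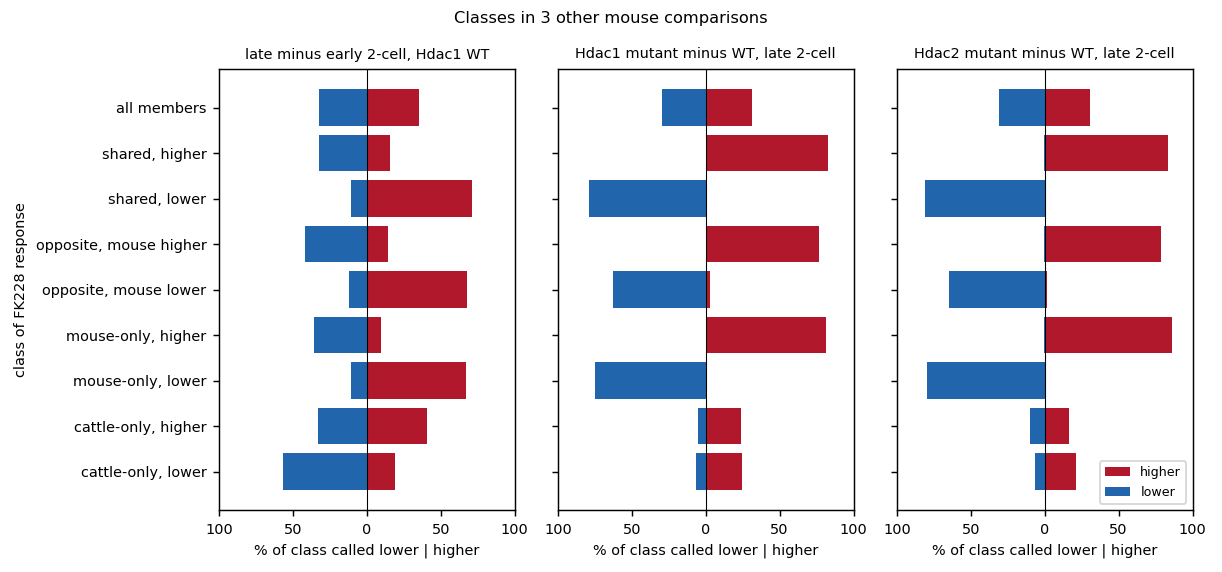
For each class of the FK228 response, bars give the percentage of genes called higher (right) or lower (left) in 3 comparisons of other mouse libraries; the top bar is all 9315 genes. Shared and mouse-only upward genes were higher with mutant Hdac1 (82.5% and 81.2%) and mutant Hdac2 (83.1% and 85.8%), and 71.1% of shared downward genes were higher at the late than at the early 2-cell stage.

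Among leading genes, Nrgn rose by 3.20 with mutant Hdac1 and 4.15 with mutant Hdac2 (adjusted p = 3.12e-08 and 2.77e-09, limma), Nrtn by 4.69 and 4.48, and Foxo6 by 3.99 and 3.45. Atf3, at -0.05 in cattle, rose by 4.95 and 5.48 with the mutants, and Esrrb, which fell in cattle, had fold changes of 0.17 and 0.23 that did not pass the test. Dppa2 fell by 3.28 and 3.26.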

How the data were processed

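RNA of whole embryos was isolated and polyA-selected, per the labels' protocols. The authors deposited FPKM values per gene and library; per the submitters' processing notes, Trimmomatic, HISAT2, featureCounts, Cufflinks and DESeq2 were used with the builds GRCm38 and ARS-UCD1.2, without versions. Strand use is not given in the sources used here. FPKM keeps no absolute depth, so no counting intervals are given; relative depth was estimated from steps of low values, roughly. In the bovine values, date-like and repeated symbols were left out.

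The 8 libraries of the 9315 genes were fitted together on log2(FPKM + 1) with limma 3.58.1 (R 4.3.3, empirical Bayes, 4 residual and 7.52 prior degrees of freedom), with Benjamini-Hochberg adjustment over all 9315 genes and a threshold of 0.05. The response in each species and the difference of responses are contrasts of this fit. The other mouse comparisons used a limma fit of 22 libraries over 17336 genes. Nothing says that the 2 libraries of a group came from separate cultures, so p-values measure only the spread between them; 2 against 2 allows no exact permutation p under 0.333. An exact 0 in FPKM can be a failed estimate.

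Named genes were the leading ones of each class by size, without overlap of FK228 and DMSO libraries and with the higher group averaging 5 FPKM or more, up to 4 genes of each list by size, and Hdac1, Hdac2, Hdac3, Hdac8 and Kdm5b; some of these genes are not reported here. The genes compared and the 43 lists were chosen with earlier results of these data known. On simulated data (9315 genes, 200 changed), 96% of genes with a log2 change of 2 in both species were placed in the right class and 42% with a change of 1. For changes in mouse only, 76% and 12% were. The changed genes were drawn only from those with a DMSO mean above 4 on the log2(FPKM + 1) scale in both species. Far fewer genes changed than the 6591 called in mouse, which makes the adjusted threshold stricter. These rates therefore do not carry over to the genes compared here, many of which are lower. Alternatives were other pseudocounts, filters, scalings, fits by species, a replicate block and leaving out each library.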

Additional observations from a re-analysis of the deposited data

Results flagged for a closer look

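The difference of responses, mouse minus cattle on the log2(FPKM + 1) scale, passed the limma test for each gene below. That pass is no support for genes admitted only through their higher group, which are named in the next paragraph. All but Hdac2 and Hdac8 lead their class by size. Among opposite genes the difference was 6.17 for Ndn, 5.41 for Crym, 5.19 for Otud6a, 4.96 for Lasp1 and 1.66 for Hdac2, and -5.48 for Sac3d1, -4.96 for Sh2d3c, -4.85 for Zscan5b and -4.11 for Rpap3. Among mouse-only upward genes it was 4.75 for Qars, 4.59 for Esx1, 4.47 for Atf3, 4.41 for Nkx1-1, 4.29 for Nckap5l and 4.28 for Igsf8. Among mouse-only downward genes it was -4.62 for Tbrg1 and Uqcr10, -4.47 for Mocs3, -4.20 for Sys1, -4.18 for Bbs2 and -4.06 for Mrpl54.

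Among cattle-only upward genes it was -4.10 for Pygm, -3.74 for Spc24 and Gal3st2, -3.32 for Tcirg1, -2.94 for Acot8 and -2.84 for Rab42. Among cattle-only downward genes it was 5.75 for Urgcp, 4.42 for Bap1, 4.29 for Esrrb, 3.69 for Klf3, 3.44 for Cyp26a1, 3.36 for Gng5 and 1.08 for Hdac8. Ndn, Crym, Otud6a, Nkx1-1, Qars, Tbrg1, Gal3st2, Rab42, Urgcp and Bap1 passed the 1 FPKM rule in a changed species only through the higher group, so that their values are a description. Qars and Bap1 rest on groups at or next to 0, so their values depend on the pseudocount. Whether species, stage, medium or annotation gives these differences cannot be told apart.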

How the results depend on the processing

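Of 388 responses of named genes, 378 kept their call under every alternative that gave them a value (with a minimum of 5 FPKM, only 316 did); the exceptions included Hdac1 (both species), Hdac3, Hdac8, Qars, Cenpa, Gja1, H3f3b and Pfdn5, and none reversed. With no filter, 4880 genes rose in mouse, the difference was upward in 3934 and 2079 were mouse-only upward. With a minimum of 5 FPKM, which tests fewer genes, 1460 rose in mouse, 1363 rose in cattle and the difference was upward in 1364; 664 were shared upward, 255 opposite and higher in mouse, 386 mouse-only upward, 214 cattle-only upward and 291 cattle-only downward. With equal sums, 1697 were shared upward, and 52.3% of cattle-only upward and 56.5% of cattle-only downward genes kept their class; with quantile normalization 50.8% and 51.2% did. Leaving out 1 library gave 2653 to 3047 upward and 3240 to 3549 downward calls in mouse, 1447 to 2111 and 2370 to 2876 in cattle, 822 to 1052 shared upward and 1421 to 1625 shared downward genes. With the replicate number as a block, which the labels do not say pairs the samples (deviations correlated at 0.001 in mouse and 0.238 in cattle), 3063 rose and 3581 fell in mouse, 2134 rose and 2851 fell in cattle, and 1145 and 1670 were shared upward and downward. Median-ratio scaling moved the median of all genes to 0.11 in mouse and -0.07 in cattle. Absolute depth is not known from FPKM, and 2 libraries a group limit small changes.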

Other observations

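Imprinted genes and stress genes were compared as well. Of 20 imprinted genes, 12 rose and 5 fell in mouse and 9 rose and 5 fell in cattle, with medians of 1.19 and 0.32. Of the 20, 4 were under 1 FPKM in both mouse DMSO libraries and 1 in both bovine DMSO libraries. Of 27 genes of the integrated and ER stress response, 14 rose and 8 fell in mouse and 10 rose and 6 fell in cattle (medians 0.55 and 0.36). Of the 27, 2 were under 1 FPKM in both mouse DMSO libraries. Of 44 GATA, Sox, T-box and forkhead factors, 28 rose and 9 fell in mouse and 17 rose and 10 fell in cattle (medians 1.36 and 0.27). Of the 44, 10 were under 1 FPKM in both mouse DMSO libraries and 4 in both bovine DMSO libraries. Of 38 enzymes of one-carbon, nucleotide and pentose phosphate metabolism, 25 fell and 4 rose in mouse and 17 fell and 4 rose in cattle (medians -1.28 and -0.35). The medians of all 9315 genes were -0.04 and 0.00. Of these genes, 32.6% rose and 38.1% fell in mouse, and 22.3% rose and 30.3% fell in cattle. The downward counts of the imprinted, stress and GATA lists were under these shares in both species.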
